A study of Mus musculus with 6 samples.

Results

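Slits, netrins and ephrins are secreted or cell-surface cues that were first studied in axon guidance, and their receptors are the Robos, the netrin receptors (Dcc, Neo1 and the Unc5 family) and the Eph receptor tyrosine kinases. All genes of these families were taken by symbol from RNA-seq count tables of sorted mouse mammary cells. The symbols were Slit1 to Slit3, Robo1 to Robo3, Ntn1 and Ntn3 to Ntn5, Unc5a to Unc5d, Dcc, Neo1, the EphA and EphB receptors and the ephrins of class A and class B. This gave 38 of the 55291 gene symbols in the tables, of which 15 encode ligands and 23 encode receptors. Within the families, genes were taken by symbol and not by measured values, but the families were chosen with earlier results of these data known.

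The data are 6 RNA-seq libraries, 2 in each of 3 groups, made from mammary glands of Adgra3-lz/+ mice at 6 weeks of age, with tissue of 5 mice pooled per sample. Adgra3 encodes the adhesion receptor Gpr125. In the lz allele, part of the gene is replaced by lacZ, so that a Gpr125-β-galactosidase fusion protein reports its expression, and every group, the Gpr125-negative cells included, was heterozygous for it. Cells were depleted of CD31+, CD45+ and Ter119+ cells and gated on high CD49f (integrin α6). The paper's methods also list an antibody to CD140a (Pdgfra) among those for flow cytometry. Cells were sorted as positive or negative for FDG, a substrate that fluoresces when β-galactosidase cleaves it. The positive cells came from the TEB-distal region, at the growing ducts' terminal end buds (TEBs), or from the nipple-proximal region. The labels of the Gpr125-negative libraries give no region, and both of these libraries were the reference for both Gpr125+ groups, so the comparisons with them share their controls. The study's methods give another number of mice and a range of ages for these preparations. The labels name no separate cultures or animals behind the replicates beyond the pools, so p-values measure the spread between these libraries only.

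Slits bind Robo receptors and mostly repel the cells that carry them. Netrins attract through Dcc and neogenin (Neo1) and repel or regulate survival through Unc5 receptors. Ephrin-As, which are anchored in the membrane by a lipid, and ephrin-Bs, which span it, bind Eph receptors on neighbouring cells and signal in both directions, sorting cells at boundaries. In the mammary gland, Ntn1 and Neo1 are known for holding the cap and body layers of the TEB together, Slit2 and Robo1 for bilayer adhesion and for restraint of branching by basal cells, Epha2 for branching and Ephb4 with Efnb2 for epithelial growth. Several of these genes are also known from endothelium, among them Efnb2, Ephb4, Unc5b and the related receptor gene Robo4.

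The libraries held 20134890 to 37296640 counts, and the 38 genes took 0.0669% to 0.127% of them. A level of 3 counts, used here as the floor of detection, corresponded to 0.0804 to 0.149 CPM, the usual scaling of a gene's count to the total of its library, which covers counting error only. The second library labelled Gpr125-negative stood apart, with 14188 genes above the floor against 17304 to 18846 in the others, and with 14 of the 38 genes at 0 counts against 4 to 10. Slit2, Ntn3 and Ephb1 were at 0 there and above the floor in the other 5 libraries. The counts of Adgra3 itself were 1658 and 550 in those labelled Gpr125-negative, 385 and 142 in those labelled TEB-distal Gpr125+ and 391 and 262 in those labelled nipple-proximal Gpr125+, and edgeR's quasi-likelihood test gave log2 fold changes of -1.45 (standard error, SE, 0.92) and -0.78 (0.90), with adjusted p = 0.982 and 1. Its transcript was thus not higher in the libraries labelled Gpr125+, and groups are called by their labels throughout, every direction below included. The libraries labelled Gpr125-negative are called the reference libraries from here on. Endothelial markers moved with the groups. The 12 genes of this list summed to 1459 and 984 CPM in the reference libraries. They summed to 22.5 and 25.0 CPM in TEB-distal and 279 and 32.7 CPM in nipple-proximal libraries. Without overlap, 10 of the 12 were lower in TEB-distal than in reference libraries (against 10% of all genes). In nipple-proximal libraries 8 of the 12 were (against 10.8%). Pecam1, which encodes the CD31 used for depletion, had 2017 and 1659 counts in the reference libraries and 51 to 550 in the others. Of the 12 genes, Erg was at 0 in the second TEB-distal and Tek in the second nipple-proximal library, and none was at 0 elsewhere. The sum of the 6 adipocyte markers was 672 and 635 CPM in the reference libraries and 1.65 to 23.6 CPM in the other 4, and Fabp4, which capillaries also express, accounted for 31236 and 18628 counts of it while Plin1 and Cidec were at 0 in both. Basal markers, all 12 above the floor in every library, summed to 3393 and 3554 CPM in the reference libraries, 4017 and 23030 in TEB-distal and 9449 and 14950 in nipple-proximal ones. Luminal markers summed to 1448 to 3056 CPM, leukocyte markers to 75.2 to 308 CPM, fibroblast markers to 28.6 to 175 CPM, pericyte markers to 6.67 to 48.8 CPM and Schwann and neural markers to 61.7 to 257 CPM.

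Of the 38 genes, 21 were above 3 counts in all 6 libraries, 12 in 1 to 5 libraries and 5 in none. Those 5 were Dcc, the netrin receptor of axons, Ntn5, Epha5, Epha8 and Epha10. Between genes, levels were compared as TMM-scaled CPM per kilobase of exon (TMM being edgeR's scaling of library totals). On this scale Efna1 was the most abundant of the 38 in each of the 3 groups, with 134 and 117 CPM per kilobase in the reference libraries, 96.0 and 232 in TEB-distal and 236 and 238 in nipple-proximal ones. Epha2, a receptor that binds ephrin-A1, came next by group mean in all 3 groups, with 11.1 to 46.6 CPM per kilobase over the 6 libraries. In the second reference library Efna5 (18.9) and Neo1 (12.5) exceeded Epha2 (11.1). In the first TEB-distal library Efna5 (25.0) did (Epha2 21.3). Efna5, Ephb3, Neo1, Efnb1, Efnb2, Unc5b, Epha4 and Slit3 followed with means of 5.24 to 16.0, and neighbours in this order overlapped in their ranges over the libraries. Neo1 ranked 3 in the Gpr125-negative group, 9 in the TEB-distal group and 7 in the nipple-proximal group.

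**Figure D1:**
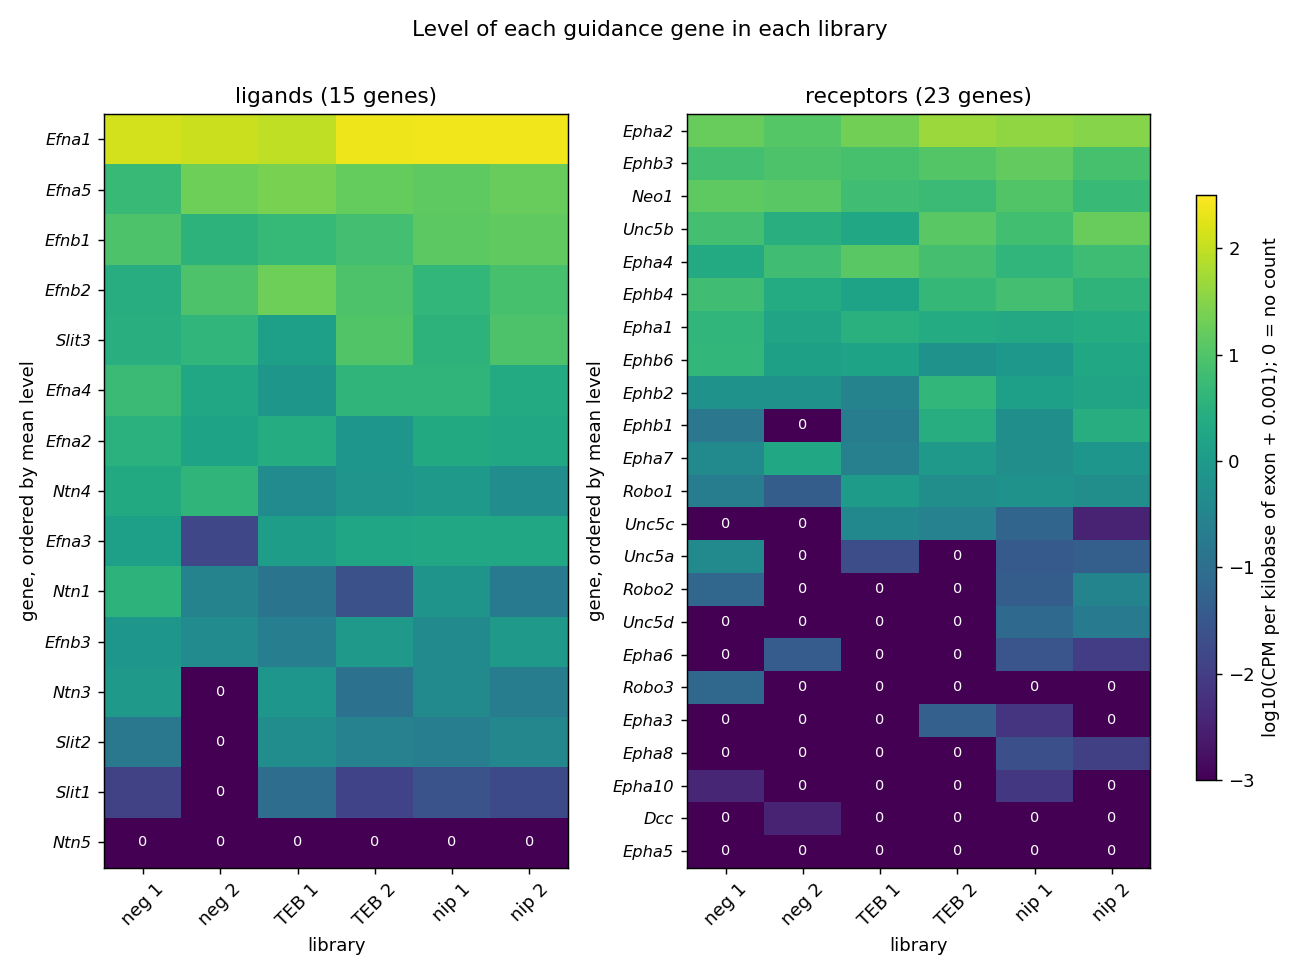
Level of each of the 15 ligand and 23 receptor genes in each library, as log10 of TMM-scaled CPM per kilobase of exon plus 0.001 (colour), with genes in rows ordered by mean level and the libraries labelled Gpr125-negative (neg), TEB-distal Gpr125+ (TEB) and nipple-proximal Gpr125+ (nip) in columns. A 0 marks a gene without a count. Efna1 is the brightest row in all 6 libraries, and the second Gpr125-negative library has 14 cells marked 0.

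Summed over genes, ligands exceeded receptors in every library, with a ratio of 2.62 to 3.62, and Efna1 made up 62.8% to 83.7% of the ligand sum. The axes differed. Ephrin-As outweighed EphA receptors 3.39 to 6.63 times, and netrins stayed at 0.0399 to 0.323 of the level of their receptors. The summed netrins were 6.79 and 4.31 CPM per kilobase in the reference libraries, above the 1.38 and 0.890 of TEB-distal and the 2.01 and 0.881 of nipple-proximal libraries. The summed EphA receptors ran the other way, with 23.2 and 21 CPM per kilobase in the reference libraries against 37.1 and 57.4 in TEB-distal and 45.4 and 40.8 in nipple-proximal ones. Ephrin-Bs, at 12.9 and 13.2 in the first group and 17.3 to 24.0 in the other 4 libraries, and Robos, at 0.349 and 0.0410 against 0.522 to 1.02, were also lowest in the reference libraries. These 4 orders held without overlap when library totals replaced TMM or the longest transcript replaced the union of exons. The summed ephrin-As were higher in nipple-proximal libraries (258 and 261) than in the reference libraries (150 and 139), with TEB-distal libraries at 126 and 254. Slits, netrin receptors and EphB receptors overlapped between all groups on this scale, though slits were higher without overlap in nipple-proximal than in reference libraries under both of those alternatives and EphB receptors under the longest transcript. These sums are descriptions, with no test.

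**Figure D2:**
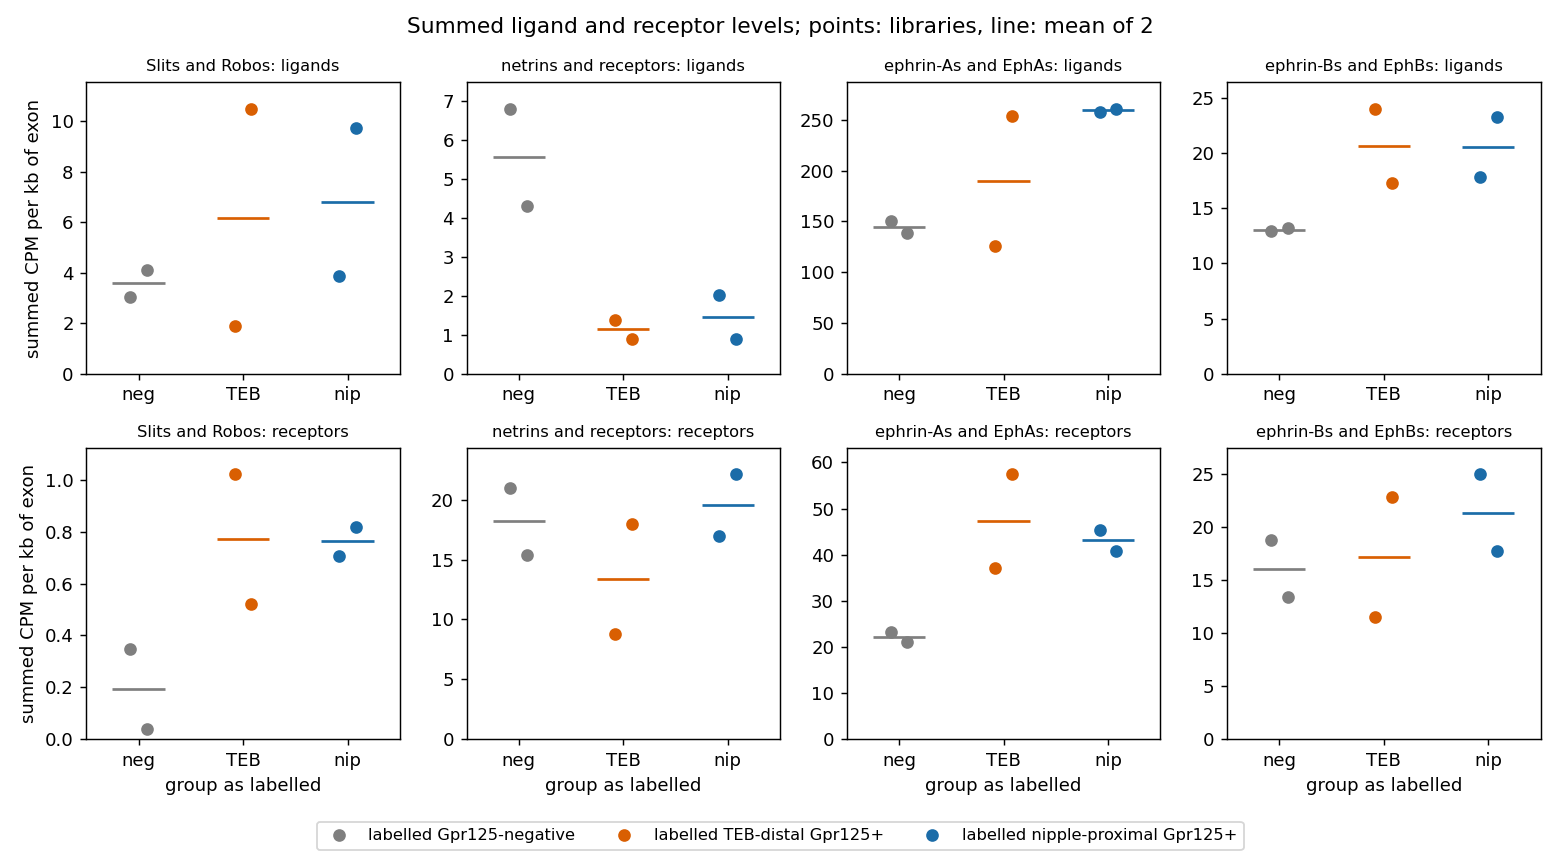
Summed level of the ligands (upper row) and receptors (lower row) of each family, in TMM-scaled CPM per kilobase of exon, for the 6 libraries (points) with the mean of the 2 libraries of each labelled group (line); each panel has its own axis from 0. Netrin ligands are highest, at 4.31 and 6.79, and EphA receptors lowest, at 21 and 23.2, in the reference libraries.

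For the tests, 28 of the 38 genes (13 ligands and 15 receptors) passed edgeR's filter on low counts, among 17268 genes in all. Of those left out, Slit1, Robo3, Unc5a, Epha3 and Epha6 were above the floor in at least 1 library, with at most 14, 22, 80, 12 and 6 counts, and the others were the 5 genes above it in none. A gene was called at an adjusted p (Benjamini-Hochberg over all genes tested) under 0.1 where it was also at least 2-fold apart. Between TEB-distal Gpr125+ and Gpr125-negative libraries, edgeR's quasi-likelihood test called 0 of the 28 genes and 0 of all genes (0%), and 2 of the 28 against 6.05% of all genes had an unadjusted p under 0.05. In that comparison DESeq2 on the 4 libraries concerned called 2 of the genes, Unc5c and Ntn1, against 4.33% of all genes with an adjusted p. Groups of 2 libraries did not overlap, with TEB-distal higher, for 6 of the 28 (21.4%, against 14% of all genes) and lower for 3 (10.7%, against 10%). Between nipple-proximal Gpr125+ and Gpr125-negative libraries, edgeR called 0 of the 28 and 0 of all genes (0%), 2 of the 28 against 3.55% of all genes had an unadjusted p under 0.05, and DESeq2 called 0 of the 28 against 2% of all genes. Here 10 of the 28 were higher without overlap (35.7%, against 19.9%) and 2 were lower (7.14%, against 10.8%). Between the 2 Gpr125+ groups, edgeR again called 0 of the 28 and 0 of all genes (0%), 2 of the 28 against 2.21% of all genes had an unadjusted p under 0.05, and DESeq2 called 1, Robo2, against 2.26% of all genes. TEB-distal libraries were higher without overlap than nipple-proximal ones for 3 of the 28 (10.7%, against 15.2%) and lower for 6 (21.4%, against 18.3%).

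By role, the 6 genes higher in TEB-distal than in Gpr125-negative libraries were 1 ligand and 5 receptors, and the 3 lower were 2 ligands and 1 receptor. The median log2 fold change of the 13 ligands was -0.05 and that of the 15 receptors 0.17, beside 0.03 over all genes tested. In nipple-proximal against Gpr125-negative libraries, 4 ligands and 6 receptors were higher, with medians of 0.16 and 1.15 beside 0.00 over all genes. In TEB-distal against nipple-proximal libraries, 1 ligand and 2 receptors were higher and 4 ligands and 2 receptors lower, with medians of -0.26 and -0.13 beside 0.06. The median over all 28 genes was 0.08, 0.43 and -0.24 in the 3 comparisons, and it was the same with genes that had 0 counts in a whole group set at their bounds. DESeq2's size factors moved the median of all genes from 0.00 to -0.17 in the second comparison and from 0.06 to 0.19 in the third. With 1 reference library in place of 2, fewer values have to be exceeded, and the shares rose for all genes too. Without the second Gpr125-negative library, 9 of the 28 genes were higher in TEB-distal libraries (32.1%, against 31.3% of all genes) and 11 lower (39.3%, against 34.1%), and 16 were higher in nipple-proximal libraries (57.1%, against 41.4%) and 8 lower (28.6%, against 40.5%). Without the first nipple-proximal library, whose endothelial markers were the higher of its group, 14 of the 28 were higher than the reference (against 30.6% of all genes) and 3 lower (10.7%, against 17.8%). In the same setting 5 were higher in TEB-distal than in nipple-proximal libraries (17.9%, against 24.9%) and 9 lower (32.1%, against 29.5%). In bulk libraries, fewer cells of a type and less RNA per cell cannot be told apart.

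**Figure D3:**
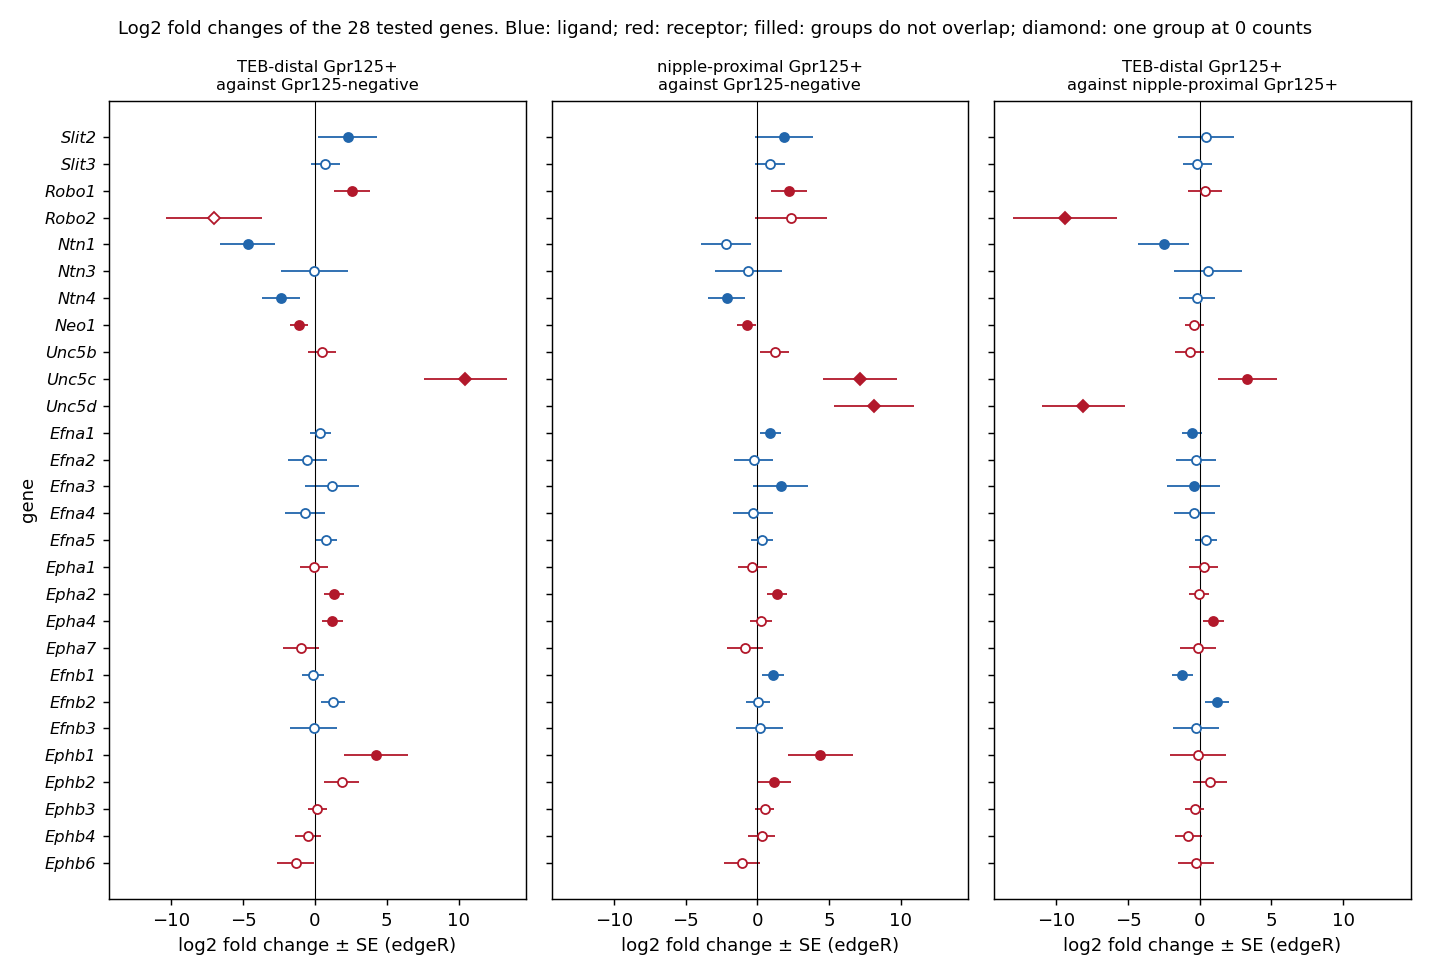
Log2 fold change with its standard error from edgeR (x axis) for the 28 genes tested, ordered by family, in the 3 comparisons of labelled groups. Filled symbols mark genes whose 2 groups of 2 libraries do not overlap, and diamonds genes with 0 counts in a whole group, whose fitted fold change has no meaning as a size. Unc5c stands furthest right and Robo2 furthest left in the comparison of TEB-distal with Gpr125-negative libraries, both as diamonds, and Robo2 and Unc5d stand furthest left in the comparison between Gpr125+ groups.

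Among the Slits, Slit2 (chr5:47983138-48307733 on GRCm38, as are all positions below) had 4 and 0 CPM in the reference libraries, 12.6 and 6.91 CPM in TEB-distal and 5.75 and 8.90 CPM in nipple-proximal libraries. All 4 Gpr125+ libraries were above both others. Its log2 fold change was 2.28 (SE 2.04) for TEB-distal and 1.87 (2.01) for nipple-proximal against Gpr125-negative cells, with adjusted p = 1 in both by edgeR's quasi-likelihood test. Without the first Gpr125-negative library, which left 1 library at 0 as the reference, the same test gave adjusted p = 0.0567 and 0.0773, so the call depended on which of the 2 reference libraries was kept. Slit3, another secreted Robo ligand, was spread over 7.84 and 61.7 CPM within the TEB-distal group and 22.1 and 56.8 CPM within the nipple-proximal group, around the 17.5 and 24.9 CPM of the reference libraries, and overlapped in every comparison. Slit1 had 0 to 14 counts.

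Robo1 (chr16:72308306-73046095), the Slit2 receptor of basal cells, was measured above the reference in every Gpr125+ library without passing the test. It had 3.53 and 0.677 CPM in the reference libraries, 16.9 and 8.61 CPM in TEB-distal and 11 and 8.52 CPM in nipple-proximal libraries. The Gpr125+ groups did not overlap with the reference and overlapped with each other. The log2 fold changes against Gpr125-negative cells were 2.60 (SE 1.27, adjusted p = 0.857) and 2.21 (1.25, adjusted p = 1) by edgeR's quasi-likelihood test. They were 1.85 and 1.47 without the second and 4.09 and 3.71 without the first Gpr125-negative library. Of the 12 basal markers, 7 were also higher without overlap than the reference in TEB-distal libraries (against 14% of all genes). In nipple-proximal libraries 10 were (against 19.9%). Trp63 went the other way, with 2700 and 248 counts in the reference, 188 and 190 in TEB-distal and 359 and 196 in nipple-proximal libraries. It did not overlap with the reference in TEB-distal libraries only. The part of the basal markers in the levels of Robo1 was not tested. Robo1 and Slit2 thus stood higher in the same 4 libraries.

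Robo2 (chr16:73891839-74411825), a second Slit receptor, was at 0 counts in both TEB-distal libraries and reached 14 and 109 in nipple-proximal libraries, with 52 and 0 in the reference. Its level was at least 26.6-fold lower in TEB-distal than in nipple-proximal libraries, taking 3 counts per library as the floor for the group at 0. This bound rested on the second nipple-proximal library and was 6.28-fold without it. This was the only one of the 28 genes that DESeq2 on these 4 libraries called in that comparison (adjusted p = 0.0138). DESeq2 on all 6 libraries gave adjusted p = 0.192 and edgeR's quasi-likelihood test gave adjusted p = 1. Between the Gpr125+ groups, the sums of pericyte and endothelial markers were also lower in TEB-distal libraries. Robo2 had 14 and 109 counts in nipple-proximal libraries. There the endothelial sum was 279 and 32.7 CPM and the pericyte sum 25.7 and 48.8 CPM. In reference libraries, with 52 and 0 Robo2 counts, the endothelial sum was 1459 and 984 CPM. The pericyte sum there was 10.8 and 27 CPM. The 8 pericyte markers summed to 6.67 and 8.89 CPM in TEB-distal libraries. Of the 5 tested, 2 were lower without overlap in TEB-distal than in nipple-proximal libraries (against 18.3% of all genes). The 2 were Rgs5 and Ndufa4l2. Rgs5 had 0 and 0 counts in TEB-distal, 11 and 334 in nipple-proximal and 0 and 545 in reference libraries. Ndufa4l2 had 36 and 212 in TEB-distal, 465 and 552 in nipple-proximal and 44 and 76 in reference libraries. Pdgfrb (54 and 1 counts in TEB-distal against 5 and 37 in nipple-proximal libraries) and Notch3 (81 and 48 against 27 and 63) overlapped. Cspg4 overlapped too, with 0 and 0 in TEB-distal, 0 and 50 in nipple-proximal and 208 and 9 in reference libraries. Kcnj8, Abcc9 and Higd1b were also at 0 in both TEB-distal libraries. Of the endothelial markers, 5 of 12 were lower without overlap in TEB-distal than in nipple-proximal libraries (against 18.3% of all genes). The part of either list in the levels of Robo2 was not tested. Against the reference libraries both groups overlapped for Robo2. Robo3 was found in 1 library only, the first labelled Gpr125-negative, with 22 counts.

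Among the netrins, Ntn1 (chr11:68209364-68400823) had 23.1 and 1.80 CPM in the reference libraries, 0.819 and 0.136 CPM in TEB-distal and 4.32 and 1.18 CPM in nipple-proximal libraries. TEB-distal libraries lay below both other groups, and the second reference library was nearer to nipple-proximal libraries than to the first. The log2 fold change of TEB-distal against Gpr125-negative was -4.70 (SE 1.93), with adjusted p = 0.815 by edgeR's quasi-likelihood test and 0.0893 and 0.0413 by DESeq2 on 4 and on 6 libraries. It was -2.06 without the first Gpr125-negative library. Against nipple-proximal libraries it was -2.52 (SE 1.76, adjusted p = 1 by edgeR), and nipple-proximal libraries overlapped with the reference. The endothelial markers had the same order of groups as Ntn1, from 1459 and 984 CPM to 279 and 32.7 and then to 22.5 and 25.0 CPM, and their part in this difference was not tested.

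Ntn4 (chr10:93640681-93747207), a netrin of basement membranes, was also highest in the reference. Its levels were 8.18 and 15.0 CPM in the reference libraries, 1.72 and 2.83 CPM in TEB-distal and 3.44 and 1.84 CPM in nipple-proximal libraries. Neither Gpr125+ group overlapped with the reference, and they overlapped with each other. Both log2 fold changes were negative, at -2.35 (SE 1.31, adjusted p = 0.908) and -2.14 (1.30, adjusted p = 1) by edgeR's quasi-likelihood test. The part of the endothelial markers, which were higher in the same 2 libraries, was not tested here either. Ntn3 had 4.75 and 0 CPM in the reference and 0.579 to 4.02 CPM elsewhere, and 4.46% of its exon sequence is shared with other genes on the annotation, so that its unstranded counts are uncertain.

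Neo1 (chr9:58874687-59036441), which encodes neogenin, was the most abundant netrin receptor in the reference. Its level was 117 and 109 CPM in the reference libraries, 55.7 and 48.2 CPM in TEB-distal and 87.7 and 46.5 CPM in nipple-proximal libraries. Both reference libraries lay above all 4 others, as they did for the endothelial markers, whose part in this was not tested. The log2 fold changes were -1.12 (SE 0.64, adjusted p = 0.927) and -0.75 (0.64, adjusted p = 1) by edgeR's quasi-likelihood test. Per kilobase, Neo1 exceeded Unc5b in both reference libraries (13.4 and 12.5 against 7.18 and 2.85). In each Gpr125+ group the order of these 2 receptors differed between the libraries, with 6.39 and 5.53 for Neo1 against 2.02 and 12.2 for Unc5b in TEB-distal and 10.1 and 5.33 against 6.74 and 16.5 in nipple-proximal ones.

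The Unc5 receptors split. Unc5c (chr3:141465216-141834924) had 0 counts in both libraries labelled Gpr125-negative, 182 and 152 counts (7.10 and 5.17 CPM) in the TEB-distal and 24 and 1 counts (1.18 and 0.0471 CPM) in the nipple-proximal libraries. It was at least 73.8-fold higher in TEB-distal libraries than in the reference, against a floor of 3 counts per library. DESeq2 called it with adjusted p = 0.000394 on 4 and 0.000478 on 6 libraries, whereas edgeR's quasi-likelihood test gave adjusted p = 0.803, the smallest of the 28 genes. In nipple-proximal libraries the bound was at least 7.38-fold higher, and it came from the first library, since the second was below the floor. TEB-distal libraries exceeded nipple-proximal ones by a log2 fold change of 3.32 (SE 2.07, adjusted p = 1 by edgeR) without overlap, which was 2.36 without the second and 6.90 without the first nipple-proximal library. Fibroblast markers moved the same way between the Gpr125+ groups. The 10 genes of this list summed to 90.0 and 175 CPM in TEB-distal, 69.4 and 54.6 CPM in nipple-proximal and 28.6 and 148 CPM in reference libraries, with Fap at 0 in all 6. Of the 8 tested, 5 were higher without overlap in TEB-distal than in nipple-proximal libraries (against 15.2% of all genes). DESeq2 on 4 libraries called 2 of them (against 2.26% of all genes). Against the reference, 4 of the 8 were higher without overlap in TEB-distal libraries (against 14% of all genes). The part of these markers in the levels of Unc5c was not tested. An overlapping gene shares 0.617% of the exon sequence of Unc5c.

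Unc5d (chr8:28646717-29219636) was the converse. Nipple-proximal libraries held 14 and 36 counts and the other 4 held 0. Nipple-proximal levels were at least 14.3-fold higher than the reference, and TEB-distal libraries were at least 10.9-fold lower than nipple-proximal ones. Without the second nipple-proximal library these bounds were 8.28-fold and 6.28-fold. DESeq2 on 4 libraries gave adjusted p = 0.132 and 0.168 and edgeR adjusted p = 1 in both. Unc5c thus had its highest level in TEB-distal and Unc5d in nipple-proximal libraries, both from a reference at 0, and with at most 0.371 and 0.184 CPM per kilobase.

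Unc5b (chr10:60762593-60831581), the abundant receptor of the family, spread within groups. Its levels were 44.9 and 17.9 CPM in the reference libraries, 12.6 and 76.6 CPM in TEB-distal and 42.2 and 103 CPM in nipple-proximal libraries, and all groups overlapped. edgeR's log2 fold changes were 0.51 (SE 0.98) for TEB-distal and 1.21 (0.99) for nipple-proximal against the reference. The first was -1.32 without the second TEB-distal library, so its direction rested on that library. Unc5a had 80 counts in the first Gpr125-negative library and at most 4 in the others, and Dcc had 1 count in all 6 libraries together.

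**Figure D4:**
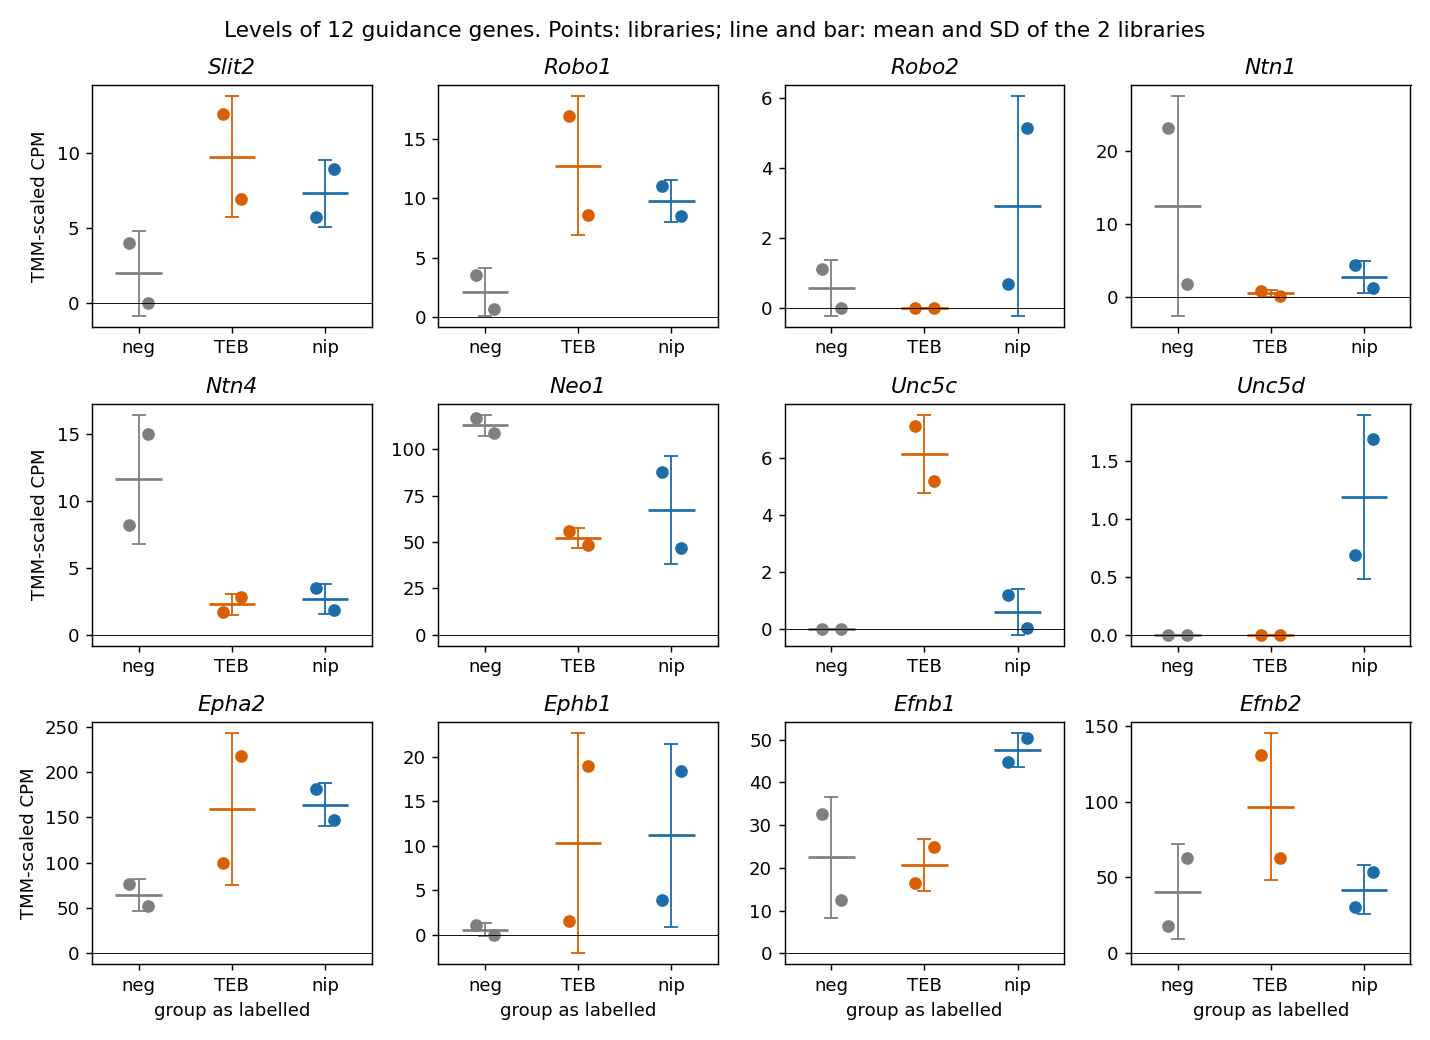
TMM-scaled CPM (y axis, 1 scale per gene) of 12 genes in the reference libraries (neg), TEB-distal Gpr125+ (TEB) and nipple-proximal Gpr125+ (nip); points are libraries, and the line and bar are the mean and SD of the 2 libraries of a group. Unc5c is at 0 in both Gpr125-negative libraries and at 7.10 and 5.17 CPM in the TEB-distal ones, while Unc5d is above 0 in the 2 nipple-proximal libraries alone.

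Promoter sequence was set beside the counts of 3 receptors whose RefSeq start adjoins the annotated gene (GRCm38.p6). They are Neo1, above the floor in every library, Ephb1, at 0 counts in the second reference library only, and Robo2, at 0 counts in 3. Each line gives the 250 bases before the start, read on the gene's minus strand, from chr9:59036442-59036691, chr9:102354694-102354943 and chr16:74411826-74412075. Capitals mark the GC box GGGCGG or its complement CCGCCC.
Neo1: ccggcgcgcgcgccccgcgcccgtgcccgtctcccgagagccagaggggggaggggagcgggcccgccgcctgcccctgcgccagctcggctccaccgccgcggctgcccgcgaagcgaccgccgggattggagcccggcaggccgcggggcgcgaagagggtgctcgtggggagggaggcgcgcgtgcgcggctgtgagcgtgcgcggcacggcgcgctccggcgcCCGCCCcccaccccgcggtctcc
Ephb1: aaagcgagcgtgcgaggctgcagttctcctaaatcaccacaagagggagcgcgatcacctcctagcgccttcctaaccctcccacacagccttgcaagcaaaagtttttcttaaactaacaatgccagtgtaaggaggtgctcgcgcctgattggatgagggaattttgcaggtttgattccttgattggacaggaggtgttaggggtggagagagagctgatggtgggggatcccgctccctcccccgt
Robo2: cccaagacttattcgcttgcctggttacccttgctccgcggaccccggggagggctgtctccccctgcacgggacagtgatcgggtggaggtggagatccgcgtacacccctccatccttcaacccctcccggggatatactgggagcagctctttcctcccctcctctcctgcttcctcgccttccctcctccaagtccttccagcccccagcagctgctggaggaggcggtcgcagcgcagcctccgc
The window of Neo1 held 1 GC box, 83.2% G and C and a ratio of observed to expected CpG of 1.04, whereas those of Ephb1 and Robo2 held 0 GC boxes, 54.0% and 65.6% G and C and ratios of 0.551 and 0.547. Other RefSeq starts of Robo2, not printed, gave 44.8% and 53.2% G and C and ratios of 0.32 and 0.466, also with 0 GC boxes. The contrast with Neo1 did not carry over to the families. RefSeq gave windows for 33 of the 38 genes. Among the 19 of these above the floor in all 6 libraries, 15 held a GC box and the median CpG ratio was 0.687, and among the other 14 genes, 9 held a GC box and the median was 0.693. Over all 32851 windows of this length, 32.7% held a GC box on either strand, 12.4% a TATAAA and 66.2% an E-box (CANNTG), and the median CpG ratio was 0.373. TATAAA or its complement was in 1 window of each of the 2 sets, those of Efnb2 and Slit2.

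Among the ephrin-As, Efna1 (chr3:89271733-89281142) had 246 and 214 CPM in the reference libraries, 176 and 424 CPM in TEB-distal and 432 and 436 CPM in nipple-proximal libraries. Both nipple-proximal libraries lay above the reference, by a log2 fold change of 0.92 (SE 0.72, adjusted p = 1 by edgeR's quasi-likelihood test), while TEB-distal libraries fell on both sides of it. Efna3 was likewise higher in nipple-proximal libraries, at 4.91 and 4.85 CPM against 3.12 and 0.0339 CPM in the reference, where the second library had 1 count. In TEB-distal libraries Efna3 had 2.85 and 4.39 CPM, and 14.1% of its exon sequence is shared with another annotated gene. Efna2 (1.67 to 6.93 CPM), Efna4 (1.33 to 9.17 CPM) and Efna5 (20.8 to 101 CPM), each a membrane-bound ligand of EphA receptors, overlapped in all 3 comparisons.

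Epha2 (chr4:141301240-141329384) was the leading Eph receptor, and it was higher in every Gpr125+ library. Its levels were 76.4 and 51.7 CPM in the reference libraries, 99.4 and 218 CPM in TEB-distal and 181 and 147 CPM in nipple-proximal libraries. The log2 fold changes were 1.31 (SE 0.70, adjusted p = 0.884) and 1.35 (0.70, adjusted p = 1) by edgeR's quasi-likelihood test, and -0.05 (0.68) between the Gpr125+ groups, which overlapped and whose difference changed sign with DESeq2's size factors (0.079). Leaving out a library in turn gave 0.63 to 1.76 for TEB-distal and 1.1 to 1.53 for nipple-proximal against the reference. As Efna1 and Epha2 were both most abundant in their class, ligand and receptor were present together in all 6 libraries.

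Epha4 (chr1:77367185-77515088), which binds ephrins of both classes, was highest in TEB-distal libraries. It had 18.2 and 51.5 CPM in the reference libraries, 100 and 60.4 CPM in TEB-distal and 33.3 and 49.7 CPM in nipple-proximal libraries. TEB-distal libraries overlapped with neither other group. Its log2 fold changes were 1.21 (SE 0.75, adjusted p = 0.971) against the reference and 0.95 (0.74, adjusted p = 1) against nipple-proximal libraries, by edgeR's quasi-likelihood test. Against the reference it was 0.50 without the first and 2.14 without the second Gpr125-negative library. Of the other EphA receptors, Epha1 (6.27 to 16.4 CPM, with 6.01% of its exon sequence shared with Zyx) and Epha7 (2.46 to 18.7 CPM) overlapped in all comparisons. Epha3 and Epha6 reached 12 and 6 counts.

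The ephrin-Bs were present in all libraries. Efnb2 and Efnb1 had opposite orders between the Gpr125+ groups, without passing the test. Efnb2 (chr8:8617434-8661242) had 18.3 and 62.8 CPM in the reference libraries, 131 and 62.6 CPM in TEB-distal and 30.5 and 53.3 CPM in nipple-proximal libraries. TEB-distal libraries lay above nipple-proximal ones, by a log2 fold change of 1.20 (SE 0.82, adjusted p = 1 by edgeR's quasi-likelihood test), and overlapped with the reference (1.25, SE 0.82). Efnb1 (chrX:99136130-99148991) had the opposite order, with 16.4 and 24.9 CPM in TEB-distal and 44.7 and 50.3 CPM in nipple-proximal libraries and 32.5 and 12.4 CPM in the reference. Nipple-proximal libraries were the highest of the 3 groups for Efnb1, by log2 fold changes of 1.08 (SE 0.76) against the reference, and TEB-distal libraries were lower than them by -1.20 (0.76), both with adjusted p = 1. Which ephrin-B was the more abundant per kilobase followed this, with 19.1 and 9.13 for Efnb2 against 4.76 and 7.20 for Efnb1 in TEB-distal libraries and 4.46 and 7.78 against 12.9 and 14.6 in nipple-proximal ones. Efnb3 stayed at 0.702 to 3.01 CPM and overlapped in all comparisons.

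Among the EphB receptors, Ephb1 (chr9:101922128-102354693) had 1.05 and 0 CPM in the reference libraries, 1.52 and 19.0 CPM in TEB-distal and 3.88 and 18.4 CPM in nipple-proximal libraries. All Gpr125+ libraries were above the reference, the first TEB-distal library by little. The log2 fold changes were 4.25 (SE 2.24, adjusted p = 0.883) and 4.38 (2.26, adjusted p = 1) by edgeR's quasi-likelihood test, and for TEB-distal cells it was 1.5 without the second TEB-distal library. Another annotated gene shares 2.17% of its exon sequence. Basal markers had the same uneven spread, with 4017 and 23030 CPM in the TEB-distal and 9449 and 14950 CPM in the nipple-proximal libraries, and their part in the levels of Ephb1 was not tested. Ephb2 was higher in nipple-proximal libraries, at 16.2 and 20.2 CPM, than in the reference, at 7.85 and 8.60 CPM (log2 fold change 1.15, SE 1.18, adjusted p = 1 by edgeR). In TEB-distal libraries Ephb2 had 3.59 and 55.7 CPM and overlapped with both other groups.

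Ephb4 (chr5:137350109-137378669), a receptor of ephrin-B2 also known from veins, had 29.7 and 11.1 CPM in the reference libraries, 7.14 and 21.8 CPM in TEB-distal and 33.0 and 17.2 CPM in nipple-proximal libraries. All groups overlapped, with log2 fold changes of -0.50 (SE 0.93) and 0.30 (0.92) against the reference. Leaving out a library in turn gave -1.52 to 0.26 and -0.25 to 1.04, so neither direction held. In each group the library with more Ephb4 was also the one with the higher sum of endothelial markers. In TEB-distal libraries those sums lay close together, at 22.5 and 25.0 CPM. Between groups the orders differed, since Ephb4 was highest in the first nipple-proximal library, with an endothelial sum of 279 CPM. The reference libraries had sums of 1459 and 984 CPM. The part of these markers in the levels of Ephb4 was not tested. Ephb3 (48.6 to 101 CPM), the most abundant EphB receptor per kilobase, and Ephb6 (2.49 to 16.3 CPM), which lacks kinase activity, overlapped in all comparisons.

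Other ligands, co-receptors and modulators of these pathways gave 21 genes in the tables, of which 15 were tested. Of these, 3 were higher (20.0%, against 14% of all genes) and 3 lower (20.0%, against 10%) without overlap in TEB-distal than in Gpr125-negative libraries. In nipple-proximal libraries 5 were higher (33.3%, against 19.9%) and 1 lower (6.67%, against 10.8%) than in Gpr125-negative ones, and between the Gpr125+ groups 3 were higher (20.0%, against 15.2%) and 5 lower (33.3%, against 18.3%) in TEB-distal libraries. edgeR called 0 in each comparison. DESeq2 on 4 libraries called 1 of the 15, lower, in each (against 4.33%, 2% and 2.26% of all genes in turn). Robo4, the endothelial member of the Robo family, had 735 and 219 counts in the reference libraries, 0 and 0 in TEB-distal and 159 and 13 in nipple-proximal libraries, the same order of groups as the endothelial markers, whose part in it was not tested. Flrt2, a membrane protein that binds Unc5 receptors, had 519 and 754 counts in the reference and 38 and 11 in nipple-proximal libraries (log2 fold change -3.94, SE 1.49, adjusted p = 1 by edgeR). Flrt1 of the same family went the other way, with 12 and 4 counts against 39 and 37. Ntng1, a membrane-anchored netrin-like gene, had 41 and 14 counts in the reference and 113 and 118 in TEB-distal libraries.

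The cytoplasmic effectors gave 47 genes in the tables, of which 46 were tested. edgeR and DESeq2 on 4 libraries called 0 of them in every comparison. Of all genes, DESeq2 called 4.33%, 2% and 2.26% in turn. Of the 46, 4 were higher (8.7%, against 14% of all genes) and 3 lower (6.52%, against 10%) without overlap in TEB-distal than in Gpr125-negative libraries. For nipple-proximal against Gpr125-negative libraries the counts were 9 (19.6%, against 19.9%) and 4 (8.7%, against 10.8%), and for TEB-distal against nipple-proximal ones 3 (6.52%, against 15.2%) and 8 (17.4%, against 18.3%), each below the share of all genes. The medians of their log2 fold changes were 0.01, 0.19 and -0.15. Enah, an actin regulator downstream of Robo and netrin receptors, was higher in both comparisons with the reference (log2 fold changes 1.22 and 1.34, SEs 0.71 and 0.71, adjusted p = 0.939 and 1 by edgeR). Dock1, a Rac activator used by Dcc, was lower in nipple-proximal libraries than in the reference (log2 fold change -1.95, SE 0.83, adjusted p = 1 by edgeR), with 1028 and 1124 counts against 168 and 156. Srgap3, a GTPase-activating protein of the Slit-Robo pathway, had 627 and 180 counts in the reference and 49 and 16 in TEB-distal libraries. Grip1, which binds ephrin-Bs and Eph receptors through PDZ domains, had 7 and 0 counts against 52 and 122.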

How the data were processed

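RNA-seq counts of 6 libraries (SMART-Seq HT, without molecular identifiers or strand) were analysed. The authors aligned reads to mm10 with STAR (version 2.7.3 in the submitters' processing notes, another in the paper's methods), and deposited HTSeq read counts per gene symbol, unnormalized. Totals were 20134890 to 37296640 counts per library, and 3 counts were 0.0804 to 0.149 CPM. Libraries were grouped by their titles. Counts were fitted in R 4.3.3 with edgeR 4.0.16 (TMM, filterByExpr, robust quasi-likelihood test) on all 6 libraries, with 17268 genes in 3 comparisons, calling genes at an FDR under 0.1 and 2-fold. The common biological coefficient of variation was 0.967. DESeq2 1.42.0, other scalings and filters, a block on the replicate number and leaving out each library were alternatives, and scripts were tested on simulated data. Adjusted p-values that DESeq2 left undefined were kept so. Levels between genes used the union of exons in GENCODE M21, where all 38 symbols were found; a fold against 0 counts in both libraries of a group used 3 counts per library as its bound. Every gene of the families was named, with values for those at least 2-fold apart without overlap and for 11 genes known from the mammary gland, and for each pathway list up to 3 non-overlapping genes per comparison. The families, the pathway lists and the marker lists were chosen with earlier results of these data known. No pair of libraries held the same counts.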

Additional observations from a re-analysis of the deposited data

How the results depend on the processing

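edgeR's 0 called genes became 943, 321 and 133 with DESeq2 on all 6 libraries, 682, 317 and 357 with DESeq2 on the 4 compared libraries, and 137, 58 and 39 when every gene with at least 1 count was kept, for TEB-distal against Gpr125-negative, nipple-proximal against Gpr125-negative and TEB-distal against nipple-proximal libraries in turn. Among the 28 genes tested, DESeq2 called 2, 0 and 0 on 6 libraries and 2, 0 and 1 on 4. Leaving out each library gave 0 to 747, 0 to 335 and 0 to 12 called genes, the highest values without the first Gpr125-negative, the first Gpr125-negative and the second nipple-proximal library, and 0 to 1, 0 to 1 and 0 of the 28, Slit2 being the called one. Other scaling, the stricter filter, edgeR on 4 libraries, no robust estimation and an FDR under 0.05 left 0. Of the 37 log2 fold changes computed again under the alternatives, 33 kept their direction and 4 did not. TEB-distal against Gpr125-negative, Unc5b was -0.031 with the replicate block and -1.32 to 1.30 on leaving out a library, and Ephb4 was -1.52 to 0.26. Ephb4 was -0.25 to 1.04 in nipple-proximal against Gpr125-negative libraries. Epha2 between the Gpr125+ groups was 0.07 with DESeq2 on 6 libraries, 0.079 with its size factors, 0.048 with the stricter filter and -0.74 to 0.47 on leaving out a library. Leaving out a library moved 24 of the 37 by more than 1.5 times, and 9 of the 510 alternative values passed the threshold. Of the summed levels, 7 of 30 moved by more than the spread between libraries with library totals and 13 of 30 with the longest transcript. With the replicate block the count of called genes stayed 0. Libraries of the same number did not deviate together (correlations -0.03, 0.19 and -0.00, with 2 pairs each), so the numbers are not taken as pairs. The counts without the second Gpr125-negative or first nipple-proximal library and the bounds without a library were added after the data were seen. Genes such as Unc5d and Robo2 rest on few counts, 14 to 36 and 14 to 109 in the nipple-proximal libraries. Whether depth or another property of the libraries limited them was not tested. The differences between tools were not traced to a cause.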
